A study of Homo sapiens with 11 samples.

Results

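The genes described here are 9 genes of the cell's reducing machinery, measured in SK-MEL103 cells: NFE2L2, which encodes the transcription factor NRF2, its inhibitor KEAP1, the NRF2 target enzymes NQO1, SRXN1 and OSGIN1, the thioredoxin pair TXN and TXNRD1, and the pentose phosphate enzymes PGD and TKT. They were taken as a list of named genes, with earlier results of these data known but with no threshold on their values, and all 9 passed the filter on low counts, among 17039 genes tested and 61566 genes in the tables. SK-MEL103 is an established human melanoma cell line. Poly(A) RNA was sequenced after 6 days in 3 groups. Cells of the tozasertib group (n = 3) received 0.5 µM of tozasertib, an inhibitor of the Aurora kinases that drive mitosis. Cells of the etoposide group (n = 4) received 0.25 µM of etoposide, a poison of topoisomerase II that leaves DNA breaks. Cells of the DMSO group (n = 4) received the solvent. Medium and drugs were renewed on day 3 in all of them. The labels call the drug-treated cells senescent and the DMSO cells non-senescent. The study screened electrophilic compounds for vulnerabilities of senescent cells. It reported that such cells rely on the peroxidase GPX4 to prevent ferroptosis, an iron-dependent cell death with oxidised lipids. All samples come from 1 cell line, and nothing in the sources says that replicates were separate cultures, so the p-values below cover the spread of these libraries alone, part or all of which may be technical. Tozasertib replicate 3 was not analysed here.

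NRF2 is held in check by KEAP1, which hands it to a CUL3 ubiquitin ligase for destruction by the proteasome. Oxidants and electrophiles modify cysteines of KEAP1, NRF2 then accumulates in the nucleus with a small MAF protein, and the pair binds the antioxidant response element, a short DNA word in the promoters and enhancers of its targets. Because this switch acts on the protein, the mRNA of NFE2L2 or KEAP1 does not report how active NRF2 is. Thioredoxin reduces disulfides in other proteins and in peroxiredoxins, thioredoxin reductase recharges it with NADPH, and the oxidative branch of the pentose phosphate pathway is a main cytosolic source of that NADPH. RNA from whole cultures was measured, so fewer cells of a type and less RNA per cell cannot be told apart.

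Levels of a gene across samples are given as CPM, edgeR's unit for reads relative to the sample's total, here after TMM scaling, and levels of different genes are compared as TPM, which also divides by transcript length. Totals ran from 27882689 to 56534763 reads a sample, and between 128 reads (OSGIN1) and 26377 reads (TKT) stood behind a member's value in a sample. The labels' arrest showed in these libraries: the cell cycle inhibitor CDKN1A was at 1498 ± 14.5 CPM with tozasertib and 1406 ± 32.8 CPM with etoposide, against 458 ± 34.2 CPM with DMSO (SD), and the proliferation and nuclear lamina genes MKI67, TOP2A, CCNB1 and LMNB1 fell with both drugs. Of 9 melanocyte markers, SOX10 was abundant at 316.6 to 541.1 CPM over all samples, MLANA had no read in any sample, and TYR, TYRP1 and DCT stayed under 1 CPM. Summed melanocyte markers ranged from 416.1 to 423.9 CPM with tozasertib and from 348 to 368.2 CPM with etoposide, against 515.2 to 581.5 CPM with DMSO. These sums are nearly all SOX10, while PMEL was at 3.251 to 4.148 CPM with tozasertib and 0.2531 to 0.5496 CPM with etoposide, against 0.1866 to 0.603 CPM with DMSO. MITF was at 8.984 to 9.507 CPM with tozasertib and 8.826 to 10.35 CPM with etoposide, against 6.622 to 8.777 CPM with DMSO. S100B was at 2.874 to 3.584 CPM with tozasertib and 1.568 to 2.953 CPM with etoposide, against 0.7735 to 1.587 CPM with DMSO. PAX3 was at 23.95 to 25.91 CPM with tozasertib and 18 to 19.87 CPM with etoposide, against 24.73 to 32.07 CPM with DMSO. Summed fibroblast markers ranged from 134.9 to 140.2 CPM with tozasertib and from 153.8 to 170.8 CPM with etoposide, against 49.5 to 58.32 CPM with DMSO, with LUM and COL1A1 higher with the drugs, TWIST2 lower (15.56 to 16.99 CPM with tozasertib and 16.91 to 18.78 CPM with etoposide, against 23.74 to 28.56 CPM with DMSO), and DCN and COL3A1 under 1 CPM throughout. Immune markers, nearly all CD68, summed to 43.54 to 48.42 CPM with tozasertib and 35.31 to 42.51 CPM with etoposide, against 56.36 to 68.81 CPM with DMSO. Keratinocyte markers, mostly KRT10, summed to between 48.36 and 68.36 CPM in every sample. Within them, KRT17 was at 5.828 to 7.9 CPM with tozasertib and 3.903 to 4.655 CPM with etoposide, against 0.269 to 1.667 CPM with DMSO. KRT14 was at 0.7591 to 0.8875 CPM with tozasertib and 0.9061 to 1.879 CPM with etoposide, against 1.715 to 3.414 CPM with DMSO. The part of these markers in the members' values was not tested. In CPM, DMSO replicate 1 was the highest DMSO sample for 7 of the 9 members, and for 37.4% of all genes tested. In TPM it was the highest DMSO sample for KEAP1 and TXN alone of the members. Results that rest on this sample are also given without it.

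In brief, the 9 genes did not move as a block. Against DMSO, 5 members were called lower with etoposide (NQO1, TXN, TKT, PGD and KEAP1) and none higher, where a call is an adjusted p under 0.05 in edgeR's quasi-likelihood test with Benjamini-Hochberg adjustment over all genes. Over all genes tested, 58.3% were called in that comparison, 30.7% as lower and 27.7% as higher. With tozasertib against DMSO, 3 members were called higher (TXNRD1, OSGIN1 and NFE2L2) and 3 lower (TXN, TKT and PGD), where 59.3% of all genes were called, 29.9% as higher and 29.4% as lower. Between the drugs, 4 members were higher with tozasertib than with etoposide (OSGIN1, TXNRD1, NQO1 and NFE2L2) and none lower, where 11.1% of all genes were called, 5.67% as higher and 5.45% as lower. On TPM, limma called 6464 genes higher and 2642 lower with tozasertib against DMSO, where edgeR called 5097 and 5008, called 5259 and 3111 with etoposide against DMSO, where edgeR called 4717 and 5224, and called 746 and 340 between the drugs, where edgeR called 966 and 929. In either direction, the 6 of 9 members called with tozasertib and the 5 of 9 called with etoposide against DMSO lie near the share of all genes, and both of those comparisons use the same DMSO samples. The samples of the groups did not overlap for 6 members with tozasertib against DMSO (59.8% of all genes), for 5 members with etoposide against DMSO (51.2% of all genes) and for 7 members between the drugs (31% of all genes).

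**Figure D1:**
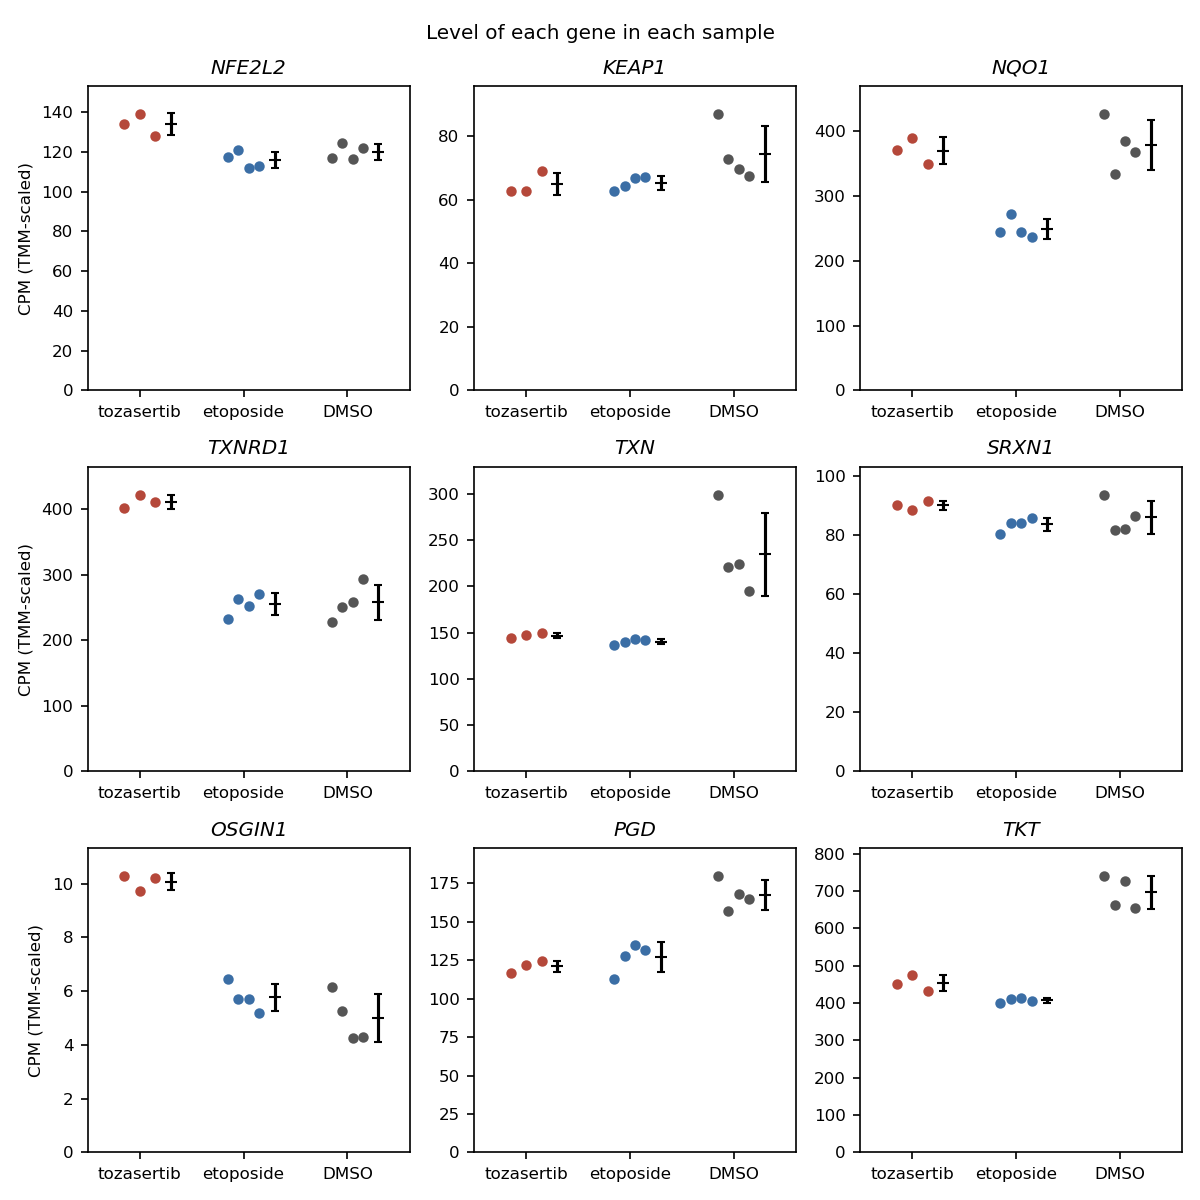
Level of each of the 9 genes in every sample, in TMM-scaled CPM, with 1 panel a gene, 1 point a sample, and the mean and SD of each group (tozasertib n = 3, etoposide n = 4, DMSO n = 4). TXNRD1 and OSGIN1 stand apart with tozasertib, NQO1 stands apart with etoposide, and TXN, PGD and TKT lie below DMSO with both drugs.

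The antioxidant response element was looked for by its core letters, TGACNNNGC, on both strands of the RefSeq promoter windows of GRCh38.p14, which run from 250 bases before a start site to 50 after it. The 9 genes had 12 such windows, and 4 windows of 3 genes (TXNRD1, KEAP1 and PGD) held the word. Of all 35116 promoters, 13.3% held it. When an A was also required as the next letter, 2 of the 9 genes (KEAP1 and TXNRD1) and 3.18% of all promoters had a match. The windows below are shown because they set a gene that was higher with tozasertib beside one lower with both drugs and the inhibitor of NRF2. They are written 5′ to 3′ on the gene's strand, in lower case, with the 9 letters of each match in capitals. A match read on the other strand appears as its reverse complement, which starts with GC and ends with GTCA.
TXNRD1 downstream start, chr12:104286782-104287081, plus strand: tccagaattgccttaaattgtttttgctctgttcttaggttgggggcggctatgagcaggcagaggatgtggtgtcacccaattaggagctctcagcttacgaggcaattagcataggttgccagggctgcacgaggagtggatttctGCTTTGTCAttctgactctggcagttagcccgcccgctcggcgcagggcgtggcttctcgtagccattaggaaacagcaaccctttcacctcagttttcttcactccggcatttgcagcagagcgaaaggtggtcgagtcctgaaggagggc
PGD, chr1:10398814-10399113, plus strand: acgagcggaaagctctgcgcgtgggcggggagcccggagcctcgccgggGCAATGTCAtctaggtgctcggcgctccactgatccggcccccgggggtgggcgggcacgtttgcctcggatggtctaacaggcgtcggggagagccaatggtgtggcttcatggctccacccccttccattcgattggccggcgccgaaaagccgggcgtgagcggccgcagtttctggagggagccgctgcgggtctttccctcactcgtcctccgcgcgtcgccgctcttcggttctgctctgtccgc
KEAP1 main start, chr19:10502722-10503021, minus strand: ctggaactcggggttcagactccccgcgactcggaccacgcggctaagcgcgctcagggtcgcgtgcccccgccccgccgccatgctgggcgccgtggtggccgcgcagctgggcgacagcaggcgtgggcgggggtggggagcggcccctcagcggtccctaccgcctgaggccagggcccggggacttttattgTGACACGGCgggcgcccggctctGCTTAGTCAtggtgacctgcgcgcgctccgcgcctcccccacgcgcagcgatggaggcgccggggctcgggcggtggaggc

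The TXNRD1 match reads TGACAAAGC on the minus strand, at 104286930 to 104286938. PGD holds TGACATTGC on the minus strand, at 10398863 to 10398871. KEAP1 holds a pair of matches that lie close together, TGACACGGC on its own strand and TGACTAAGC on the other. The window at the upstream TXNRD1 start, whose transcript TXNRD1-204 held 2.87% of the gene's TPM with tozasertib and 2.84% with etoposide, against 7.98% with DMSO, held another pair. The share of TXNRD1-204 ran from 0.852% to 17% over the DMSO samples, a range that held every drug-treated sample. NQO1, OSGIN1, SRXN1, TXN, TKT and NFE2L2 had no match in these windows, which says only that the letters are not in those 300 bases. The word was thus present in a member called higher with tozasertib and in members called lower, and a match is a description of the letters, not of binding.

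Among the 9 genes, thioredoxin reductase had the smallest adjusted p between the drugs. TXNRD1 (ENSG00000198431.18, GRCh38 chromosome 12, 104215779 to 104350307, plus strand) encodes the cytosolic selenoenzyme that recharges thioredoxin. It stood at 401.68, 422.53 and 410.79 CPM in the tozasertib samples and at 232.63, 263.52, 252.7 and 271.38 CPM in the etoposide samples, against 228.49, 251.49, 259.26 and 293.08 CPM in the DMSO samples. Every tozasertib sample lay above all the others, and the etoposide and DMSO samples covered each other. TXNRD1 was 1.595-fold higher with tozasertib than with DMSO (log2 fold change 0.67, SE 0.079, edgeR adjusted p = 8.5e-06) and 1.614-fold higher than with etoposide (0.69, SE 0.079, edgeR adjusted p = 8.84e-05). Both calls held in every alternative run, with log2 fold changes of 0.61 to 0.75 and of 0.65 to 0.72 when each sample was left out in turn. With etoposide against DMSO the log2 fold change was -0.02 (edgeR adjusted p = 0.858), and 2 SE on either side span -0.17 to 0.13. Of 19 TXNRD1 transcripts, TXNRD1-201 held 50.7%, 55.5% and 55.1% of the gene's TPM with tozasertib, etoposide and DMSO, and TXNRD1-210 held 27.6%, 25.3% and 22.3%. In TPM, TXNRD1-201 stood at 117.2 with tozasertib, 74.97 with etoposide and 66.18 with DMSO, and TXNRD1-210 stood at 63.74 with tozasertib, 34.47 with etoposide and 27.41 with DMSO, so both abundant forms were highest with tozasertib. Transcripts that start within 400 bases of the downstream start site held 95.4% of the gene's TPM with tozasertib, 95.3% with etoposide and 90.9% with DMSO, and the window printed above is the one at that site. Over the DMSO samples that share ran from 82.3% to 98.7%, a range that held every drug-treated sample.

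OSGIN1 (ENSG00000140961.14, chromosome 16, 83931311 to 83966332, plus strand), an NRF2 target named for its growth-inhibiting effect under oxidative stress, was the least abundant member and the one with the widest change in fold. It stood at 10.292, 9.7182 and 10.193 CPM with tozasertib and at 6.443, 5.7223, 5.7079 and 5.1927 CPM with etoposide, against 6.1392, 5.2497, 4.2598 and 4.3045 CPM with DMSO. The tozasertib samples lay above all others, and etoposide and DMSO overlapped. Its level was 2.022-fold higher with tozasertib than with DMSO (log2 fold change 1.02, SE 0.13, edgeR adjusted p = 1.89e-05) and 1.743-fold higher than with etoposide (0.80, SE 0.128, edgeR adjusted p = 0.00128). With etoposide against DMSO the log2 fold change was 0.21 (edgeR adjusted p = 0.16, 2 SE from -0.04 to 0.46). Without DMSO replicate 1, which held the highest DMSO value, it was 0.33 (edgeR adjusted p = 0.0216), and on the log2(TPM + 1) scale with all samples it was 0.32 (limma adjusted p = 0.0302).

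NQO1 (ENSG00000181019.13, chromosome 16, 69706996 to 69726668, minus strand) encodes the quinone reductase often used as a readout of NRF2. It differed from both of the genes above, since etoposide and not tozasertib set its pattern. NQO1 stood at 370.77, 389.43 and 348.35 CPM with tozasertib and at 244.1, 271.76, 244.4 and 236.77 CPM with etoposide, against 426.46, 333.92, 385.03 and 367.77 CPM with DMSO. Every etoposide sample lay below all the others. NQO1 was 1.518-fold lower with etoposide than with DMSO (log2 fold change -0.60, SE 0.0751, edgeR adjusted p = 1.38e-05) and 1.482-fold higher with tozasertib than with etoposide (0.57, SE 0.0803, edgeR adjusted p = 0.000508). With tozasertib against DMSO the log2 fold change was -0.03 (edgeR adjusted p = 0.736, 2 SE from -0.20 to 0.13). With counts rescaled for transcript length it was -0.24 (edgeR adjusted p = 0.0391), a call that the other alternatives did not make.

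The NQO1 transcripts, which differ in length, did not all follow the gene's total. NQO1-201, of 2521 bases, held 36.1% of the gene's TPM with tozasertib (35.1% to 37.7%) and 38.9% with etoposide (36.7% to 44%), against 24.9% with DMSO (22.7% to 26.2%). NQO1-206, of 892 bases, held 25.9% with tozasertib and 25% with etoposide, against 35.6% with DMSO. NQO1-201 therefore had a larger share in every drug-treated sample than in any DMSO sample. In TPM, NQO1-201 averaged 169.4 with tozasertib and 115.3 with etoposide, against 116.1 with DMSO, and NQO1-206 averaged 121.5 with tozasertib and 74.49 with etoposide, against 166 with DMSO. The mean TPM of NQO1-201 with etoposide was thus close to that with DMSO, while the other forms were lower: NQO1-204, of 924 bases, averaged 50.97 with etoposide, against 99.61 with DMSO, NQO1-202, of 1105 bases, 46.89 with etoposide, against 67.61 with DMSO, and NQO1-203, of 2527 bases, 9.458 with etoposide, against 16.37 with DMSO. The forms did not order by length. These are Salmon's estimates of how reads divide between overlapping transcripts, given here with no test. The TPM of transcripts carry no TMM scaling. On log2(TPM + 1) the median log2 fold change of all genes against DMSO was 0.11 with etoposide and 0.20 with tozasertib.

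**Figure D2:**
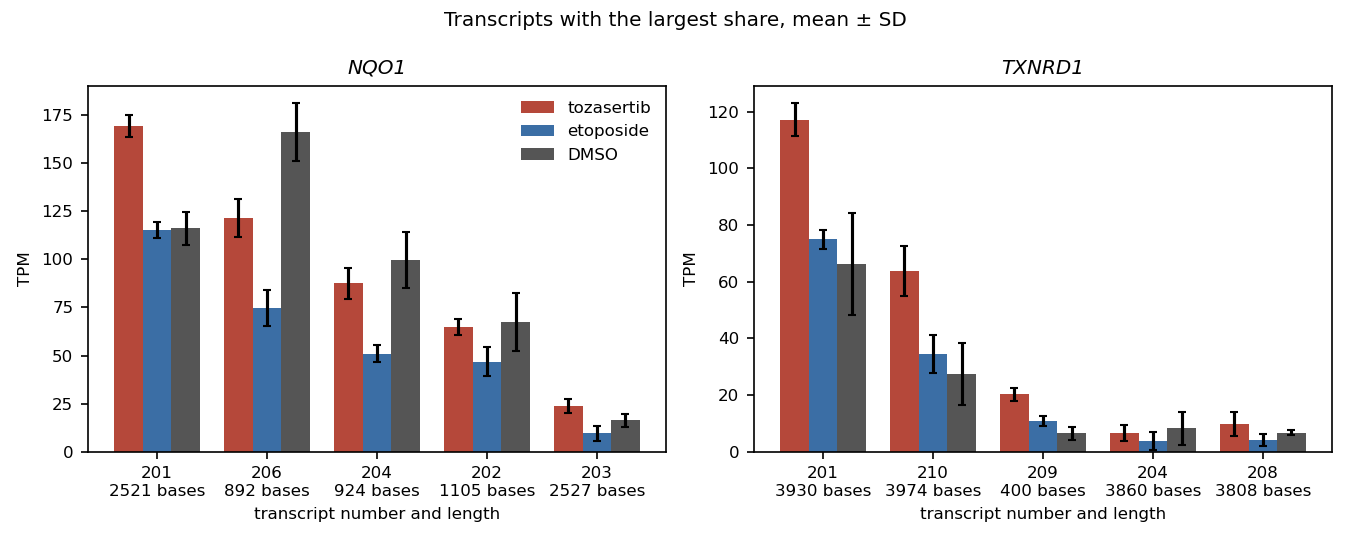
Level in TPM, without TMM scaling, of the 5 transcripts with the largest shares of NQO1 (left) and TXNRD1 (right), with the length of each below its number. Bars are means and error bars SD (tozasertib n = 3, etoposide n = 4, DMSO n = 4): NQO1-201 is at 115.3 TPM with etoposide and 116.1 TPM with DMSO, while NQO1-206 is at 74.49 TPM with etoposide and 166 TPM with DMSO.

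SRXN1 (ENSG00000271303.2, chromosome 20, 646615 to 653200, minus strand) encodes sulfiredoxin, which repairs over-oxidised peroxiredoxins and is a further NRF2 target. It stood at 90.221, 88.513 and 91.765 CPM with tozasertib and at 80.465, 84.315, 84.269 and 85.802 CPM with etoposide, against 93.812, 81.724, 82.274 and 86.662 CPM with DMSO. Only DMSO replicate 1 reached above the tozasertib samples. No comparison was called: the log2 fold change was 0.07 with tozasertib against DMSO (edgeR adjusted p = 0.347, 2 SE from -0.05 to 0.18), -0.04 with etoposide against DMSO (edgeR adjusted p = 0.542, 2 SE from -0.15 to 0.07) and 0.11 between tozasertib and etoposide (edgeR adjusted p = 0.294, 2 SE from -0.01 to 0.23). The first was called in 3 of 20 alternatives: without DMSO replicates 1 and 4 (0.14, edgeR adjusted p = 0.0162), with library size alone (0.16, edgeR adjusted p = 0.0197) and on the log2(TPM + 1) scale (0.30, limma adjusted p = 0.00194). The last was called in 2 of 20: with only these 2 groups (0.12, edgeR adjusted p = 0.0468) and without DMSO replicates 1 and 4 (0.12, edgeR adjusted p = 0.0376).

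Thioredoxin itself was lower with both drugs, while its reductase was higher with tozasertib and was not called with etoposide. TXN (ENSG00000136810.13, chromosome 9, 110243810 to 110256507, minus strand) stood at 143.68, 146.93 and 149.53 CPM with tozasertib and at 136.87, 139.66, 142.53 and 141.63 CPM with etoposide, against 298.99, 220.63, 224.4 and 194.51 CPM with DMSO. Every drug-treated sample lay below every DMSO sample, and the DMSO samples were spread much wider than the others. TXN was 1.599-fold lower with tozasertib (log2 fold change -0.68, SE 0.11, edgeR adjusted p = 0.000154) and 1.674-fold lower with etoposide (-0.74, SE 0.101, edgeR adjusted p = 3.05e-05) than with DMSO. Its mRNA is short, with an effective length of 343.2 to 385.1 bases, and the highest value lay in DMSO replicate 1. Without DMSO replicate 1 the log2 fold changes were -0.54 (edgeR adjusted p = 1.81e-06) with tozasertib and -0.61 (edgeR adjusted p = 2.72e-07) with etoposide. These were the smallest values when each sample was left out in turn. Without DMSO replicate 4 as well, which held the lowest DMSO value, they were -0.60 (edgeR adjusted p = 1.85e-07) and -0.67 (edgeR adjusted p = 4.35e-08). The differences were thus smaller without replicate 1 but still called. On the log2(TPM + 1) scale the tozasertib difference was -0.36 (limma adjusted p = 0.000106). Every tozasertib sample lay above all etoposide samples, but that difference was not called (log2 fold change 0.07, edgeR adjusted p = 0.764, 2 SE from -0.15 to 0.28). None of the 20 alternatives called it. The fit's estimate of the spread was shared by all groups, the wider DMSO samples among them. In TPM, TXN was the most abundant of the 9 mRNAs in every group, at 666.94 ± 23.3 with tozasertib and 601.51 ± 19.2 with etoposide, against 857.95 ± 34.2 with DMSO (SD). The reductase TXNRD1 was at 230.98 ± 7.16 TPM with tozasertib and 135.43 ± 8.77 TPM with etoposide, against 118.82 ± 24.4 TPM with DMSO.

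The pentose phosphate enzymes fell with both drugs. TKT (ENSG00000163931.17, chromosome 3, 53224712 to 53256052, minus strand) encodes transketolase, which moves carbon between sugar phosphates in the non-oxidative branch. TKT stood at 450.2, 476.16 and 432.31 CPM with tozasertib and at 399.42, 411.46, 413.9 and 404.93 CPM with etoposide, against 740.66, 663.05, 726.57 and 654.49 CPM with DMSO. Each drug-treated sample lay below all DMSO samples. TKT was 1.537-fold lower with tozasertib (log2 fold change -0.62, SE 0.0612, edgeR adjusted p = 1.64e-06) and 1.709-fold lower with etoposide (-0.77, SE 0.0562, edgeR adjusted p = 7.77e-08) than with DMSO, and both calls held in every alternative run, though on the log2(TPM + 1) scale the tozasertib difference was -0.33 (limma adjusted p = 0.00287). The tozasertib samples lay above the etoposide samples, but that difference was not called (log2 fold change 0.15, edgeR adjusted p = 0.133, 2 SE from 0.03 to 0.27), though 3 of the 20 alternatives called it, such as the fit of only these 2 groups (0.16, edgeR adjusted p = 0.0224).

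PGD (ENSG00000142657.21, chromosome 1, 10398592 to 10420511, plus strand) encodes 6-phosphogluconate dehydrogenase, an enzyme of that pathway that makes NADPH. PGD stood at 116.88, 121.72 and 124.19 CPM with tozasertib and at 112.92, 127.57, 135.02 and 131.49 CPM with etoposide, against 179.9, 156.82, 168.12 and 164.75 CPM with DMSO. Again no drug-treated sample reached a DMSO sample, while the drugs overlapped. PGD was 1.384-fold lower with tozasertib (log2 fold change -0.47, SE 0.0698, edgeR adjusted p = 7.14e-05) and 1.321-fold lower with etoposide (-0.40, SE 0.0642, edgeR adjusted p = 0.000125) than with DMSO. On the log2(TPM + 1) scale the differences were smaller, at -0.17 with tozasertib, not called by limma (adjusted p = 0.0525), and -0.20 with etoposide (limma adjusted p = 0.0228). Between the drugs the log2 fold change was -0.07 (edgeR adjusted p = 0.603, 2 SE from -0.21 to 0.07).

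**Figure D3:**
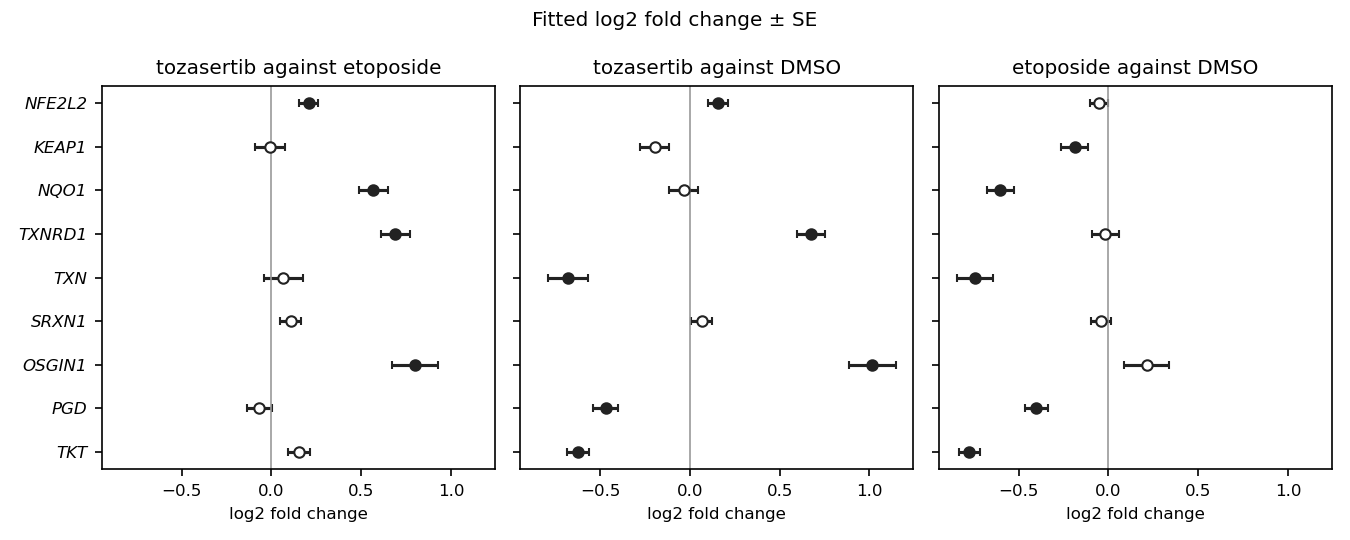
Log2 fold change of each of the 9 genes in the 3 comparisons (tozasertib against etoposide, tozasertib against DMSO, etoposide against DMSO), as fitted by edgeR, with bars of 1 SE. Filled points have an adjusted p under 0.05. OSGIN1 and TXNRD1 lie at 1.02 and 0.67 with tozasertib against DMSO, and TXN, PGD and TKT lie below 0 with both drugs.

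The regulators NFE2L2 and KEAP1 moved little. NFE2L2 (ENSG00000116044.17, chromosome 2, 177218667 to 177392756, minus strand) stood at 133.93, 139.17 and 128.12 CPM with tozasertib and at 117.41, 120.72, 112.02 and 112.92 CPM with etoposide, against 116.75, 124.43, 116.48 and 121.87 CPM with DMSO. The tozasertib samples were the 3 highest. NFE2L2 was 1.116-fold higher with tozasertib than with DMSO (log2 fold change 0.16, SE 0.0541, edgeR adjusted p = 0.0228) and 1.155-fold higher than with etoposide (0.21, SE 0.054, edgeR adjusted p = 0.0248). Both calls were close to the threshold and were lost when tozasertib replicate 2 was left out, with log2 fold changes of 0.13 (edgeR adjusted p = 0.112) and 0.18 (edgeR adjusted p = 0.14), and likewise without replicate 1 (0.15 with edgeR adjusted p = 0.0738, and 0.20 with edgeR adjusted p = 0.107). The first was also lost without DMSO replicate 3 (edgeR adjusted p = 0.0744), and the second without etoposide replicate 3 (edgeR adjusted p = 0.0828) or 4 (edgeR adjusted p = 0.0776). Both were lost with no filter (edgeR adjusted p = 0.166 and 0.123) and with length-scaled counts (edgeR adjusted p = 0.0556 and 0.0786). In all, the first was lost in 6 of the 20 alternatives and the second in 7. With etoposide against DMSO the log2 fold change was -0.05 (edgeR adjusted p = 0.41, 2 SE from -0.15 to 0.05).

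KEAP1 (ENSG00000079999.14, chromosome 19, 10486125 to 10503558, minus strand) stood at 62.827, 62.889 and 68.966 CPM with tozasertib and at 62.697, 64.206, 66.78 and 67.296 CPM with etoposide, against 87.121, 72.75, 69.774 and 67.628 CPM with DMSO. Its window above is the one with a pair of matches. The etoposide samples lay just below the lowest DMSO sample, and 1 tozasertib sample lay above it. KEAP1 was called 1.139-fold lower with etoposide than with DMSO (log2 fold change -0.19, SE 0.076, edgeR adjusted p = 0.0485), and that call was lost in 16 of the 20 alternatives run, such as without DMSO replicate 1, where the log2 fold change was -0.11 (edgeR adjusted p = 0.0916). With tozasertib against DMSO the log2 fold change was -0.20 (edgeR adjusted p = 0.0556), and 4 of the 20 alternatives called it, among them length-scaled counts, where it was -0.44 (edgeR adjusted p = 0.0441). Between the drugs it was -0.01 (edgeR adjusted p = 0.969, 2 SE from -0.17 to 0.16).

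The ratio of NFE2L2 to KEAP1 TPM, the activator's mRNA over that of its inhibitor, was 2.336, 3.089 and 2.608 with tozasertib and 2.335, 2.197, 2.157 and 2.294 with etoposide, against 1.22, 2.082, 1.795 and 2.36 with DMSO. The lowest ratio was that of DMSO replicate 1, and DMSO replicate 4 lay above every etoposide sample. No pair of groups had an exact p under 0.05 in a two-sided permutation test over the samples, a level that comparisons with tozasertib could not reach. The log2 difference was 0.55 with tozasertib against DMSO (exact p = 0.114, smallest possible 0.0571), 0.31 with etoposide against DMSO (exact p = 0.171, smallest possible 0.0286) and 0.25 between tozasertib and etoposide (exact p = 0.0571, which is the smallest possible). Without DMSO replicate 1 the log2 difference was 0.36 with tozasertib against DMSO (exact p = 0.2) and 0.12 with etoposide against DMSO (exact p = 0.343). With CPM in place of TPM they were 0.35 (exact p = 0.0571) and 0.13 (exact p = 0.229). With 3 tozasertib samples, comparisons with that group cannot pass 0.05 in this test. Nor can etoposide against DMSO once DMSO replicate 1 is left out.

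Around the members, genes that control NRF2 were read from a list of 16, all tested. Of these, 8 were called higher and 3 lower with tozasertib against DMSO (median log2 fold change 0.16, against 0.02 over all genes), and with etoposide against DMSO 6 higher and 3 lower (median 0.04, against -0.01). Of all genes tested, 29.9% were called higher and 29.4% lower with tozasertib, and 27.7% and 30.7% with etoposide. SQSTM1, the autophagy adaptor p62 that binds KEAP1 and frees NRF2, was at 860.5 ± 7.52 CPM with tozasertib and 610.8 ± 17 CPM with etoposide, against 389 ± 30.8 CPM with DMSO, with log2 fold changes of 1.15 (edgeR adjusted p = 5.47e-09) and 0.65 (edgeR adjusted p = 6.09e-07). TRIM21, a ubiquitin ligase that acts on p62, was at 42.2 ± 3.07 CPM with tozasertib, against 20.67 ± 2.04 CPM with DMSO (log2 fold change 1.03, edgeR adjusted p = 3.27e-07). CUL3, the scaffold of the ligase that destroys NRF2, was at 77.95 ± 4.45 CPM with tozasertib and 82.79 ± 2.72 CPM with etoposide, against 100.7 ± 1.05 CPM with DMSO, and was called lower with both drugs (edgeR adjusted p = 7.16e-05 with tozasertib and 0.000323 with etoposide). BTRC, part of a further ligase for NRF2, was at 29.47 ± 1.13 CPM with tozasertib and 32.64 ± 1.21 CPM with etoposide, against 20.93 ± 1.65 CPM with DMSO (edgeR adjusted p = 5.26e-05 with tozasertib and 2.39e-06 with etoposide). MAFF, a small MAF partner of NRF2, showed the widest change of the list, at 19.77 ± 1.93 CPM with tozasertib and 8.691 ± 1.6 CPM with etoposide, against 52.87 ± 3.44 CPM with DMSO (log2 fold changes -1.42 and -2.60, edgeR adjusted p = 3.28e-07 with tozasertib and 8.42e-10 with etoposide). Between the drugs, SQSTM1, TRIM21 and MAFF were called higher with tozasertib and none of the list lower, where 5.67% of all genes were called higher.

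Of 34 further NRF2 target genes, 33 were tested. Of these, 12 were called higher and 13 lower with tozasertib against DMSO (median log2 fold change 0.10, against 0.02 over all genes), and with etoposide against DMSO 9 higher and 16 lower (median -0.34, against -0.01). The shares of all genes were 29.9% higher and 29.4% lower with tozasertib, and 27.7% and 30.7% with etoposide. Between the drugs, 9 of the list were called higher with tozasertib and 0 lower (median 0.14, against 0.01 over all genes), where 5.67% of all genes were called higher. Among them were SLC7A11, GCLC, GCLM, GSR, HMOX1, PIR, SLC48A1 and ABCC2, which fall outside the rule for named genes and are named after their values were seen. Of these, GCLC, GCLM and HMOX1 were also called higher with tozasertib than with DMSO (edgeR adjusted p = 0.0159, 0.0267 and 0.025). PIR and SLC48A1 were called lower with tozasertib than with DMSO (edgeR adjusted p = 0.0061 and 0.000714). SLC7A11, GSR and ABCC2 were not called in that comparison. ABCC2 was near the floor, at 0.7457 CPM with tozasertib and 0.2863 CPM with etoposide. SLC7A11, the cystine importer, was at 56.58 ± 7.78 CPM with tozasertib and 19.23 ± 2.65 CPM with etoposide, with 47.73 ± 10.1 CPM in DMSO, and its log2 fold change between the drugs was 1.56 (edgeR adjusted p = 2.63e-05). GCLM and GCLC, the subunits of the rate-limiting enzyme of glutathione synthesis, were 1.359-fold (edgeR adjusted p = 0.0139) and 1.293-fold (edgeR adjusted p = 0.0423) higher with tozasertib than with etoposide. GSR, which reduces oxidised glutathione with NADPH, was 1.248-fold higher (edgeR adjusted p = 0.00151), and HMOX1, heme oxygenase, 1.365-fold higher (edgeR adjusted p = 0.0156). The count of 9 was 10 without DMSO replicates 1 and 4, and 5 to 10 when each sample was left out in turn (5 without tozasertib replicate 1), with 0 called lower in each of those fits.

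Not all NRF2 targets followed that order. CBR3, a carbonyl reductase, fell with both drugs, to 4.026 ± 0.567 CPM with tozasertib and 3.769 ± 0.293 CPM with etoposide, against 15.26 ± 3.69 CPM with DMSO (log2 fold changes -1.92 and -2.01, edgeR adjusted p = 6.89e-07 with tozasertib and 1.71e-07 with etoposide). The aldose reductase gene AKR1B1 was at 59.07 ± 0.734 CPM with tozasertib and 61.26 ± 3.75 CPM with etoposide, against 98.25 ± 11.8 CPM with DMSO (edgeR adjusted p = 7.78e-06 with tozasertib and 6.21e-06 with etoposide). TRIM16 was at 92.7 ± 1.45 CPM with tozasertib and 87.54 ± 6.74 CPM with etoposide, against 55.85 ± 2.54 CPM with DMSO (edgeR adjusted p = 7.45e-07 with tozasertib and 1.16e-06 with etoposide). FTL, the ferritin light chain, rose with both drugs, to 2157 ± 93.5 CPM with tozasertib and 2310 ± 170 CPM with etoposide, against 1341 ± 192 CPM with DMSO (edgeR adjusted p = 4.49e-05 with tozasertib and 6.69e-06 with etoposide). Its reads can be shared with near-identical ferritin pseudogenes, so its level is uncertain.

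Of 25 further genes of the thioredoxin and peroxiredoxin system, 24 were tested. Of these, 7 were called higher and 14 lower with tozasertib against DMSO (median log2 fold change -0.29, against 0.02 over all genes), and with etoposide against DMSO 7 higher and 10 lower (median -0.20, against -0.01). The shares of all genes were 29.9% higher and 29.4% lower with tozasertib, and 27.7% and 30.7% with etoposide. The same 7 genes of the list were higher with each drug: SESN1, SESN2, SESN3, TXNIP, TXNRD2, TXNRD3 and NXN. SESN1, a p53-induced sestrin, was at 55.89 ± 0.326 CPM with tozasertib and 46.91 ± 2.86 CPM with etoposide, against 15.2 ± 1.14 CPM with DMSO (edgeR adjusted p = 2.7e-10 with tozasertib and 5.01e-10 with etoposide). SESN2 was at 52.23 ± 3.01 CPM with tozasertib and 47.01 ± 0.862 CPM with etoposide, against 21.11 ± 1.65 CPM with DMSO (edgeR adjusted p = 4.25e-09 with tozasertib and 7.72e-09 with etoposide). TXNIP, which binds and inhibits thioredoxin and was named after its values were seen, was at 167.4 ± 26 CPM with tozasertib and 148.9 ± 24.7 CPM with etoposide, against 53.17 ± 8.59 CPM with DMSO (log2 fold changes 1.66 and 1.49, edgeR adjusted p = 6.88e-07 with tozasertib and 1.04e-06 with etoposide). MSRA, which repairs oxidised methionine with electrons from thioredoxin, was at 25.51 ± 1.29 CPM with tozasertib and 25.82 ± 1.22 CPM with etoposide, against 48.03 ± 5.51 CPM with DMSO (edgeR adjusted p = 1.11e-06 with tozasertib and 5.17e-07 with etoposide). MAP3K5, the stress kinase ASK1 that reduced thioredoxin restrains, was at 5.02 ± 0.383 CPM with tozasertib and 4.429 ± 0.512 CPM with etoposide, against 9.911 ± 0.867 CPM with DMSO (edgeR adjusted p = 1.06e-05 with tozasertib and 1e-06 with etoposide). The peroxiredoxins PRDX1, PRDX3, PRDX4 and PRDX5 were among the genes called lower with each drug. Between the drugs, GLRX and SESN1 were called higher with tozasertib and NXN lower, counts that ran from 0 to 2 and from 0 to 5 when each sample was left out in turn. In that comparison 5.67% of all genes were called higher and 5.45% lower.

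Of 26 further NADPH and pentose phosphate enzymes, 24 were tested. Of these, 6 were called higher and 12 lower with tozasertib against DMSO (median log2 fold change -0.17, against 0.02 over all genes), and with etoposide against DMSO 6 higher and 9 lower (median -0.09, against -0.01). The shares of all genes were 29.9% higher and 29.4% lower with tozasertib, and 27.7% and 30.7% with etoposide. IDH1, the cytosolic isocitrate dehydrogenase that makes NADPH, was at 64.52 ± 2.84 CPM with tozasertib and 61.77 ± 4.09 CPM with etoposide, against 138.8 ± 5.45 CPM with DMSO (log2 fold changes -1.11 and -1.17, edgeR adjusted p = 1.21e-08 with tozasertib and 3.11e-09 with etoposide). MTHFD1, a folate enzyme with an NADPH-producing step, was at 68.35 ± 1.23 CPM with tozasertib and 77 ± 1.91 CPM with etoposide, against 133.5 ± 5.71 CPM with DMSO (edgeR adjusted p = 6.81e-09 with tozasertib and 1.67e-08 with etoposide). TIGAR, a p53 target that turns sugar towards the pentose phosphate pathway, rose to 115.9 ± 3.74 CPM with tozasertib and 101.6 ± 2.18 CPM with etoposide, against 46.54 ± 1.24 CPM with DMSO (log2 fold changes 1.32 and 1.13, edgeR adjusted p = 2.89e-10 with tozasertib and 5.75e-10 with etoposide). H6PD, an NADPH-producing enzyme of the endoplasmic reticulum, was at 74.73 ± 4.14 CPM with tozasertib and 86.81 ± 3.47 CPM with etoposide, against 48.12 ± 3.07 CPM with DMSO (edgeR adjusted p = 2.38e-06 with tozasertib and 6.88e-08 with etoposide). Between the drugs 2 of the list were called higher with tozasertib (TIGAR among them) and 6 lower, counts that ran from 1 to 2 and from 1 to 8 when each sample was left out in turn. In that comparison 5.67% of all genes were called higher and 5.45% lower. The lists of NRF2 targets, thioredoxin genes and NADPH enzymes share genes such as PRDX1, TALDO1 and ME1, so their counts are not separate.

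**Figure D4:**
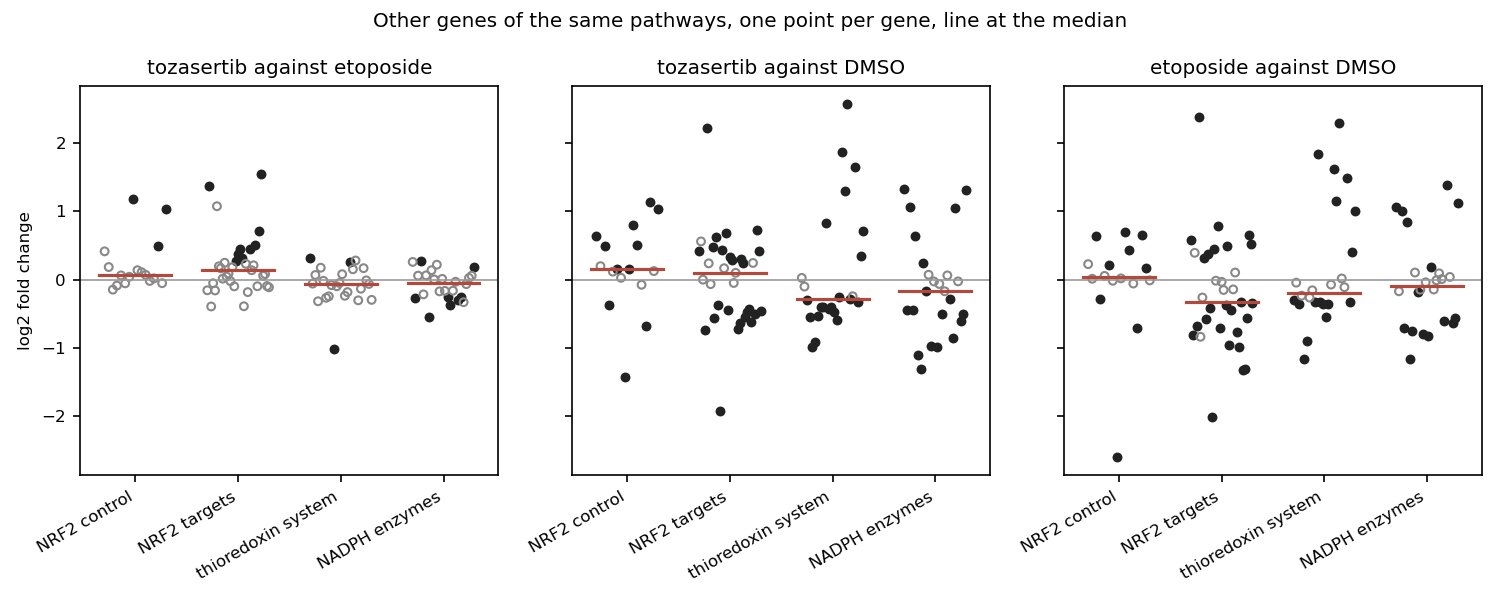
Log2 fold change of every tested gene of 4 lists (NRF2 control, NRF2 targets, thioredoxin system, NADPH enzymes) in the 3 comparisons, with 1 point a gene, filled where edgeR's adjusted p was under 0.05, and a line at the median. Of the 33 NRF2 targets tested, 9 were called higher and 0 lower with tozasertib against etoposide, where 5.67% of all genes were called higher and 5.45% lower.

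For each member, the gene whose pattern over the 11 samples was most like it was found among 10796 protein-coding genes, by the root mean square difference of mean-centred log2 CPM. TXN lay nearest to PSMB7, a proteasome subunit gene (0.0502), which was at 156 ± 2.19 CPM with tozasertib and 155.3 ± 8.29 CPM with etoposide, against 243.1 ± 44.6 CPM with DMSO. PGD lay nearest to CCNC (0.0237), TKT to PCIF1 (0.0349), KEAP1 to MAGEF1 (0.0257), SRXN1 to TMEM50A (0.0297) and NFE2L2 to RCC2 (0.0408). The nearest genes of the other members were farther in absolute distance: NQO1 lay nearest to MTHFD2L (0.093), OSGIN1 to APOL2 (0.0947) and TXNRD1 to ETS1 (0.105). The members' own variation differed, however. Its root mean square in log2 was 0.298 for NQO1, 0.442 for OSGIN1 and 0.32 for TXNRD1, against 0.095 for NFE2L2 and 0.0683 for SRXN1. The distances therefore do not rank how closely members are matched. APOL2 was at 40.25 ± 4.61 CPM with tozasertib and 20.7 ± 1.71 CPM with etoposide, against 17.84 ± 2.76 CPM with DMSO, and ETS1 at 257 ± 7.82 CPM with tozasertib and 188.7 ± 12.6 CPM with etoposide, against 180.3 ± 16.9 CPM with DMSO.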

How the data were processed

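The authors prepared directional poly(A) libraries. Tools named in the submitters' notes are Salmon 1.9.0, cutadapt 4.7, DESeq2 1.40.2 and R 4.4.2, with build GRCh38. The study's methods name another aligner, while the deposited columns are Salmon's. Each deposited table lists 251645 transcripts with estimated counts (not normalized), TPM made by the authors from effective length, and that length in bases.

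Transcripts were joined to GENCODE release 44, leaving 437 without a match (0.136% to 0.163% of reads). Estimated counts were summed to genes and rounded. Genes kept by filterByExpr were tested two-sided in all 11 samples with edgeR 4.0.16 (quasi-likelihood, TMM, Benjamini-Hochberg, R 4.3.3). CPM and TPM are means ± SD. SE came from the fold change and F statistic, and 2 SE mark intervals. Members and gene lists were chosen with earlier results of these data known. Beside the members, the text names from each list the 2 called genes of smallest adjusted p in each direction for each drug. A result under that rule is not reported here. Alternatives used DESeq2 1.42.0, limma 3.58.1 on log2(TPM + 1), other scalings, filters, samples and a replicate block. The test was tried on simulated counts.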

Additional observations from a re-analysis of the deposited data

How the results depend on the processing

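Of 540 log2 fold changes of members under 20 alternatives, 467 kept their direction and side of the threshold, 30 lost a call, 15 gained one and 28 turned sign, all of the last among differences without a call. The calls of TXNRD1 and OSGIN1 with tozasertib, of NQO1 and PGD with etoposide, and of TXN and TKT with both drugs held throughout. Of these, the tozasertib values of TXN and TKT and the etoposide value of PGD were over 1.5 times smaller on TPM. PGD with tozasertib went from -0.4693 to -0.1726 on TPM and lost its call there (limma adjusted p = 0.0525). The median of all genes lay at 0.11 with library size alone (tozasertib against DMSO), and on TPM at 0.20 (tozasertib) and 0.11 (etoposide).

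These log2 fold changes turned sign. With etoposide against DMSO, NFE2L2 was at 0.0009 with library size alone and 0.1219 on TPM, SRXN1 at 0.0122 and 0.1220 in the same settings and 0.0221 without both DMSO replicates 1 and 4, and TXNRD1 at 0.0103 with DESeq2 size factors and in the DESeq2 test, 0.0305 with library size alone, 0.2085 on TPM, 0.0381 with length-scaled counts, 0.0189 in the fit of only the 2 groups, and -0.0743 to 0.0461 when each sample was left out. With tozasertib against DMSO, NQO1 was at 0.0581 with library size alone, 0.0106 on TPM, 0.0418 without both DMSO replicates, and -0.0948 to 0.0233 when each sample was left out. Between tozasertib and etoposide, KEAP1 was at 0.0302 with library size alone, 0.0287 on TPM, 0.0035 with only the 2 groups, 0.0020 without both DMSO replicates, and -0.0571 to 0.0132 when each sample was left out, and PGD at 0.0250 on TPM.

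Counts moved by over 1.5 times as follows. On TPM, 3111 genes were lower and 1 member higher (OSGIN1) with etoposide against DMSO, and 2642 genes lower with tozasertib against DMSO. Members higher with etoposide numbered 0 to 1 when each sample was left out (1 without DMSO replicate 1). Length-scaled counts gave 5 members lower with tozasertib against DMSO. Genes higher between tozasertib and etoposide numbered 606 with length-scaled counts, 1785 with only the 2 groups, 1881 without both DMSO replicates, and 565 (without tozasertib replicate 1) to 1545 (without DMSO replicate 1) when each sample was left out. Genes lower numbered 1551 in the DESeq2 test, 340 on TPM, 521 with length-scaled counts, 1767 with only the 2 groups, 1914 without both DMSO replicates, and 471 (without tozasertib replicate 1) to 1854 (without DMSO replicate 1) when each sample was left out.

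Among the lists between the drugs, NRF2 control genes called higher numbered 6 with only the 2 groups and 6 without both DMSO replicates. NRF2 targets called higher numbered 5 to 10 when each sample was left out. Thioredoxin genes called higher numbered 1 with DESeq2 size factors, 1 on TPM, 0 with no filter, 0 with length-scaled counts, and 0 to 2 when each sample was left out, and those called lower numbered 3 with no filter, 4 in the DESeq2 test, 0 with length-scaled counts, 6 with only the 2 groups, 5 without both DMSO replicates, and 0 to 5 when each sample was left out. NADPH enzymes called higher numbered 1 with DESeq2 size factors, with no filter, on TPM and with length-scaled counts, and 1 to 2 when each sample was left out, and those called lower numbered 0 on TPM, 1 with length-scaled counts, and 1 to 8 when each sample was left out. Against DMSO, 6 thioredoxin genes were lower with tozasertib on TPM. The cause of these moves was not tested.

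The main fit did not pair samples by replicate number. Correlations of same-numbered samples of different groups ran from -0.0973 to 0.23. Between tozasertib and etoposide, same-numbered samples correlated at 0.2297, 0.09115 and 0.1204. Differently numbered samples of these groups ran from -0.207 to 0.1606 and were mostly negative. Whether the numbers mark a shared batch was not tested. With the replicate number as a block, KEAP1 was no longer called with etoposide against DMSO (log2 fold change -0.19, edgeR adjusted p = 0.0803), genes called between the drugs numbered 834 higher and 785 lower, 1 thioredoxin gene was higher and 3 NADPH enzymes lower between the drugs, and no other member's call changed.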

Other observations

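Some genes of the lists were not measurable in these libraries. PRDX2, a cytosolic peroxiredoxin and a main client of thioredoxin, had 9 reads over all 11 samples and at most 0.106 CPM in any of them, while its close relative PRDX1 was at 236.9 ± 8.82 CPM with tozasertib and 253.3 ± 13.2 CPM with etoposide, against 319.3 ± 52.7 CPM with DMSO (SD). The transketolase relative TKTL1 had 2 reads, the folate enzyme gene ALDH1L1 had 41 reads and the NRF2 target GPX2 had 0 reads over all samples.

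The TXNRD1 relatives did not share its order between the drugs. TXNRD3 was at 8.905 ± 0.331 CPM with tozasertib and 10.94 ± 0.979 CPM with etoposide, against 5.414 ± 0.705 CPM with DMSO, and the mitochondrial TXNRD2 was at 41.76 ± 0.649 CPM with tozasertib and 43.61 ± 1.25 CPM with etoposide, against 32.82 ± 5.51 CPM with DMSO. Both were called higher with each drug than with DMSO by edgeR (adjusted p = 0.000135 and 3.01e-06 for TXNRD3, 0.00926 and 0.00209 for TXNRD2, with tozasertib and then etoposide), and neither was called between the drugs (adjusted p = 0.115 and 0.756). These genes were picked after their values were seen.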
